A study of Bos taurus with 3 samples.

Results

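Enzymes that activate acetate and other short acids, and enzymes that carry propionate toward the citric acid cycle, were examined in epithelial cells of the bovine rumen. The set was a list of 7 genes, ACSS2, ACSF2, ACSS1, ACSS3, PCCA, PCCB and MCEE, chosen by name among the 19533 genes of the deposited table. The cells came from the ventral sac of the rumen of 3 adult Holstein dairy cows in lactation, with 1 library of droplet single-cell RNA sequencing per cow and 1 untreated condition, so the comparisons are between cell states within the same animals. Only the epithelial cells were kept by the authors, and the 20728 cells were split here by whether at least 1 UMI (unique molecular identifier, 1 captured transcript) of DLK2, GJA1, IGFBP5 or TOP2A was counted. None of these 4 genes is a member of the set, so the split did not use the enzymes.

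Acetate and propionate are the main short acids that rumen microbes release from fiber, and the epithelium takes them up from the lumen. A short acid has to be joined to coenzyme A before a cell can use it. ACSS2 does this for acetate in the cytosol and nucleus, ACSS1 does it for acetate in mitochondria, and ACSS3 is a mitochondrial enzyme that prefers propionate. ACSF2 is a mitochondrial synthetase of the same superfamily whose known substrates are medium-chain fatty acids, so acetate activation does not describe it. Propionyl-CoA is carboxylated to methylmalonyl-CoA by propionyl-CoA carboxylase, a biotin enzyme built of the alpha subunit PCCA and the beta subunit PCCB. MCEE, an epimerase, turns the product into the form that the cobalamin enzyme MMUT converts to succinyl-CoA.

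The 4 genes gave 6 states that were compared. DLK2 marks the granule layer, the outer living layer of a keratinized epithelium, in the study, and 3147 cells with DLK2 but without the other 3 genes were called DLK2+. GJA1 encodes a gap junction protein, and IGFBP5 a secreted protein that binds insulin-like growth factors. Both genes with no DLK2 and no TOP2A were found in 1107 cells (IGFBP5+GJA1+), GJA1 alone in 296 cells (GJA1+) and IGFBP5 alone in 5901 cells (IGFBP5+). TOP2A, a topoisomerase of dividing cells, was found in 2536 cells (TOP2A+), whatever their other genes. All 4 genes were at 0 in 3559 cells (none). A further 4182 cells held DLK2 together with GJA1 or IGFBP5 and were described but not tested. DLK2+ thus does not stand for all cells with DLK2, only for those without GJA1, IGFBP5 and TOP2A. A count of 0 does not show that a gene is off, and the states depend on depth. After thinning to 5000 UMIs, without cells below that depth, cow 2 went from 1098 to 2489 cells with none of the genes. Its GJA1+ cells went from 80 to 178 and its IGFBP5+GJA1+ cells from 348 to 166. These states moved in the same directions in cows 1 and 3.

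Sequencing depth was uneven, with 38912809 UMIs from 3369 cells of cow 1, 94856658 UMIs from 7401 cells of cow 2 and 104189434 UMIs from 9958 cells of cow 3. A level is given throughout as the UMIs of a gene in 1000000 UMIs of a state in a cow (CPM). The median depth per cell was 8449 UMIs in DLK2+ cells, 10713 in IGFBP5+ cells, 12037.5 in GJA1+ cells, 14259 in TOP2A+ cells and 16332 in IGFBP5+GJA1+ cells, beside 8440 in cells with none of the genes. The epithelial keratins KRT5, KRT14 and KRT19 were counted in every state of every cow, with a summed level of 5432 to 16956 CPM. The summed level of 5 immune markers was 4.23 to 11.9 CPM over states and cows, that of 4 endothelial markers 1.25 to 10.0, and that of 5 smooth muscle markers 0 to 6.17, while 4 fibroblast markers had 12 UMIs in all cells together. In cows 1, 2 and 3 the endothelial sum was 2.18, 1.25 and 2.84 in DLK2+ cells and 4.20, 3.31 and 4.78 in IGFBP5+GJA1+ cells. The immune sum was 9.51, 11.9 and 8.08 in DLK2+ cells and 4.50, 6.93 and 4.23 in IGFBP5+GJA1+ cells. The smooth muscle sum was also lower in IGFBP5+GJA1+ cells in each cow. Among the barcodes, 35 occurred in 2 libraries.

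Of the 7 genes, 5 were well counted and 2 had almost no UMIs, which does not show that these are off. ACSF2 (ENSBTAG00000021301) had 56147 UMIs, PCCA (ENSBTAG00000010672) 12530, MCEE (ENSBTAG00000035247) 11747, PCCB (ENSBTAG00000015221) 8661 and ACSS2 (ENSBTAG00000013303) 5156. ACSS1 (ENSBTAG00000004281) had 24 UMIs in 24 cells and ACSS3 (ENSBTAG00000018694) 5 UMIs in 5 cells. The libraries read the 3' end of transcripts, so levels are compared between states and not between genes.

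ACSS1, the mitochondrial acetate enzyme, was at or near 0 in each state. It had 3 UMIs in DLK2+ cells, 4 in IGFBP5+ cells, 2 in GJA1+ cells, 5 in TOP2A+ cells, 5 in cells with none of the 4 genes and 5 in the cells left out of the tests. In IGFBP5+GJA1+ cells it had 0 UMIs, and a count of 0 there allows a level of up to 0.160 CPM (3 UMIs over the 3 cows). ACSS3 had 2 UMIs in DLK2+ cells, 1 in IGFBP5+ cells, 1 in IGFBP5+GJA1+ cells and 1 in the cells left out. It had 0 UMIs in the other 3 states, where the limit was 0.0813 CPM in TOP2A+ cells, 0.0942 in cells with none of the genes and 0.859 in GJA1+ cells. Neither gene passed the filter on low counts, and no difference between states was detectable at this depth.

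ACSS2, the cytosolic acetate enzyme, was lowest in DLK2+ cells and highest in IGFBP5+GJA1+ cells in each of the 3 cows. Its level in the DLK2+ cells of cows 1, 2 and 3 was 18.4, 10.9 and 17.8 CPM. In IGFBP5+GJA1+ cells it was 38.0, 24.9 and 29.8 in the same order of cows. The states did not overlap, and cow 2 was the lowest cow in both. IGFBP5+ cells had levels of 31.4, 18.4 and 26.6, and TOP2A+ cells 28.0, 16.9 and 23.6, each higher than DLK2+ cells in 3 of 3 cows, though both overlapped them between cows. GJA1+ cells had 32.6, 15.3 and 20.0, which rests on 74 UMIs, and also overlapped the DLK2+ cells. Cells with none of the 4 genes, at 22.4, 13.5 and 20.1, overlapped them too.

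ACSF2 showed the same order of states in each cow up to the GJA1 states. DLK2+ cells had 115, 127 and 197 CPM in cows 1, 2 and 3, and cells with none of the genes had 164, 156 and 251. IGFBP5+ cells had 218, 193 and 285 and TOP2A+ cells 283, 218 and 288. Within each cow the level thus went up from DLK2+ cells over cells with none of the genes and IGFBP5+ cells to TOP2A+ cells, although neighbouring states overlapped between cows. The TOP2A+ state includes cells with GJA1. TOP2A+ cells without GJA1 had 226, 197 and 276, above IGFBP5+ cells in cows 1 and 2 and below them in cow 3. GJA1+ cells had 394, 332 and 412 and IGFBP5+GJA1+ cells 368, 332 and 472. These GJA1 states overlapped each other and lay above every other state.

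PCCA, the alpha subunit of propionyl-CoA carboxylase, had levels of 29.9, 30.7 and 43.9 CPM in the DLK2+ cells of cows 1, 2 and 3. In IGFBP5+GJA1+ cells it had 78.7, 79.4 and 96.6, and in GJA1+ cells 81.4, 68.6 and 86.0. The lowest value of these GJA1 states was above the highest of any other state. IGFBP5+ cells had 53.1, 49.8 and 59.9 and TOP2A+ cells 49.9, 52.0 and 59.4, which overlapped. Cells with none of the genes had 44.3, 39.8 and 50.5 and lay above the DLK2+ cells in each cow.

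PCCB, the beta subunit, was also lowest in DLK2+ cells and highest in IGFBP5+GJA1+ cells of each cow, but the spread between cows was wider. DLK2+ cells had 21.2, 28.1 and 29.8 CPM. IGFBP5+GJA1+ cells had 57.4, 56.3 and 40.1, and GJA1+ cells, with 142 UMIs in all, had 56.4, 40.3 and 32.3. Cow 3 was the highest cow in DLK2+ cells and the lowest in the GJA1 states. IGFBP5+ cells had 43.2, 40.3 and 36.1, TOP2A+ cells 48.8, 39.0 and 33.3, and cells with none of the genes 29.1, 28.9 and 33.1.

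The ratio of PCCA to PCCB UMIs, which is compared between states only, had ranges that overlapped. It was 1.33 ± 0.204 (SD, n = 3 cows) in DLK2+ cells, 1.38 ± 0.247 in IGFBP5+ cells, 1.38 ± 0.384 in TOP2A+ cells, 1.47 ± 0.0862 in cells with none of the genes, 1.73 ± 0.588 in IGFBP5+GJA1+ cells and 1.93 ± 0.641 in GJA1+ cells. For cows 1, 2 and 3 it was 1.44, 1.70 and 2.66 in GJA1+ cells, 1.37, 1.41 and 2.41 in IGFBP5+GJA1+ cells, and 1.41, 1.09 and 1.47 in DLK2+ cells. Within cows, the ratio of GJA1+ cells was above that of DLK2+, IGFBP5+, TOP2A+ and IGFBP5+GJA1+ cells in 3 of 3 cows and above that of cells with none of the genes in 2 of 3. IGFBP5+GJA1+ cells were above IGFBP5+ cells in 3 of 3 cows and above DLK2+ cells in 2 of 3. The ratio was not tested. Cow 3 had the highest ratio of the 3 cows in each of these 6 states.

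MCEE, the epimerase, split the states by GJA1. Its level was 37.8, 40.4 and 46.8 CPM in DLK2+ cells and 39.9, 42.3 and 41.7 in cells with none of the genes. It was 49.0, 45.2 and 46.3 in IGFBP5+ cells and 56.7, 39.5 and 42.2 in TOP2A+ cells, which overlapped the DLK2+ cells. In GJA1+ cells it was 121, 87.1 and 102 and in IGFBP5+GJA1+ cells 106, 89.2 and 96.6. The lowest value of the GJA1 states was 87.1 and the highest of the other states was 56.7.

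**Figure D1:**
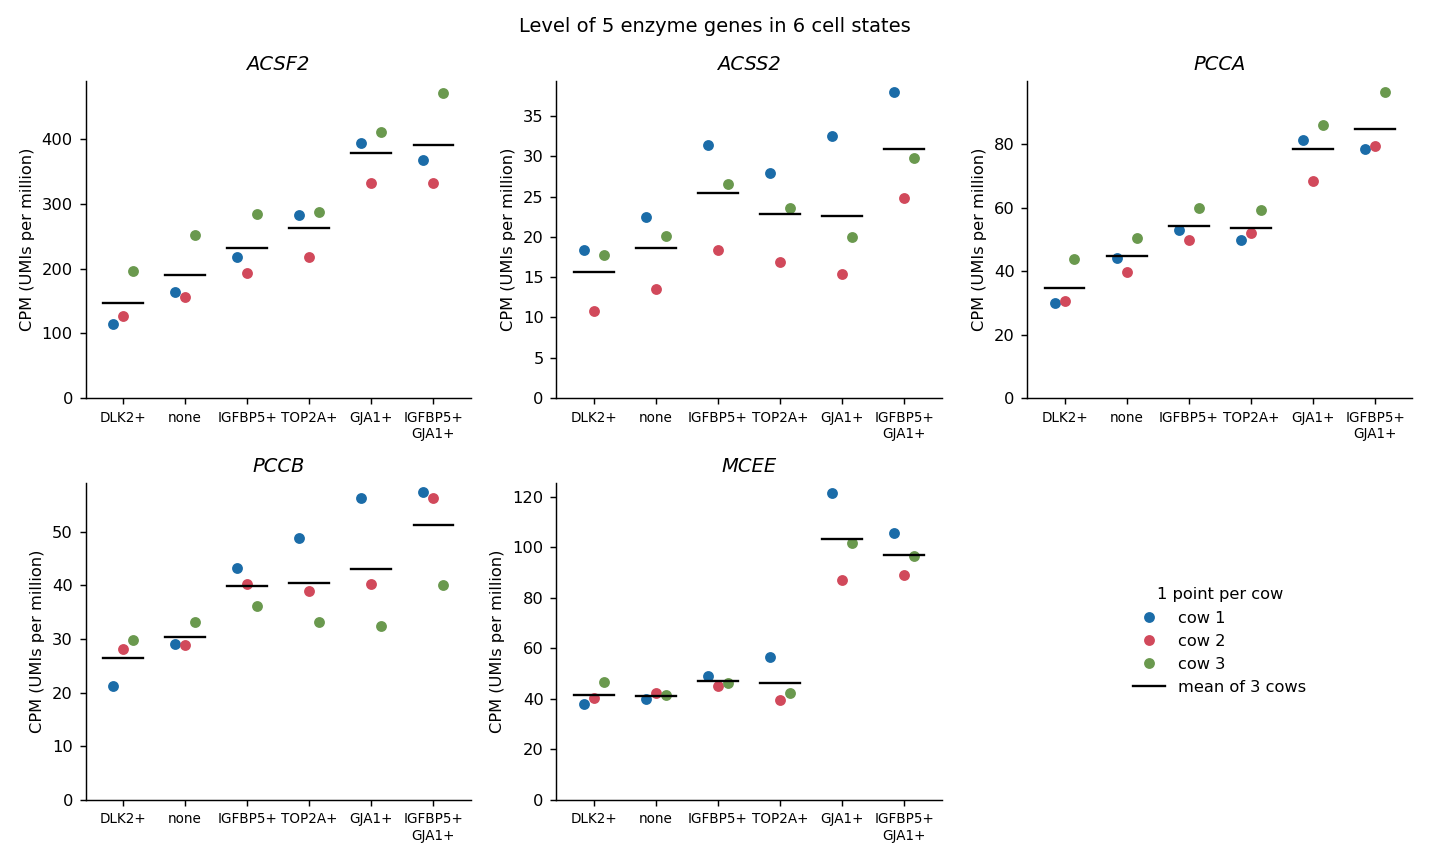
Level of 5 enzyme genes (CPM, linear axes from 0) in the 6 cell states, with 1 point per cow and a line at the mean of the 3 cows. MCEE sits at 37.8 to 56.7 in the 4 states without a GJA1 gate and at 87.1 to 121 in the GJA1 states. ACSF2 in cows 1, 2 and 3 has 115, 127 and 197 in DLK2+ cells and 368, 332 and 472 in IGFBP5+GJA1+ cells.

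Whether the states differ was tested on UMI counts summed per cow and state, with the cow as a block, by the quasi-likelihood test of edgeR, and p-values were adjusted after Benjamini and Hochberg over all 10471 genes that passed the filter on low counts. A gene was called where the adjusted p was under 0.05. Values are log2 fold changes after TMM scaling. The standard error (SE), the intervals and the p-values come from the fit to all 18 sums. They pool the variation over all 6 states and are not the spread of a difference over the 3 cows. The 4 comparisons with DLK2+ cells share the DLK2+ sums, and those with IGFBP5+GJA1+ cells share these sums, so they are not independent. The fold changes shift with the scaling. With library size alone, the median over all genes in the IGFBP5+GJA1+ against DLK2+ comparison moved from -0.06 to -0.25, and the share of calls that were higher went from 47.3% to 30.4%.

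All 5 tested enzymes were called higher in IGFBP5+GJA1+ cells than in DLK2+ cells, where 23.9% of all genes tested were called higher, 26.6% lower and 50.5% in either direction. By the edgeR quasi-likelihood test, ACSF2 was higher by 1.61 (SE 0.12, adjusted p = 2.56e-10) and PCCA by 1.47 (SE 0.093, adjusted p = 1.14e-11). MCEE was higher by 1.39 (SE 0.12, adjusted p = 1.57e-09), ACSS2 by 1.19 (SE 0.11, adjusted p = 3.4e-09) and PCCB by 1.11 (SE 0.16, adjusted p = 2.94e-06). As ratios of the levels within a cow, the geometric means over the 3 cows were 2.72-fold for ACSF2, 2.46-fold for PCCA, 2.33-fold for MCEE, 1.99-fold for ACSS2 and 1.94-fold for PCCB. Each enzyme was higher in 3 of 3 cows and the states did not overlap. The share of all genes without overlap between these states was not counted, so the lack of overlap is a description only. The median of the 5 enzymes was 1.39, beside -0.06 over all genes tested.

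Measures of RNA quality moved with the same states. The summed level of 9 immediate-early and stress genes was 2845 to 10842 CPM in DLK2+ cells and 1635 to 5521 in IGFBP5+GJA1+ cells, and the median mitochondrial share per cell was 9.52% and 16.6%. With the mitochondrial and stress genes taken out of the sums, the 5 differences were 1.13 (PCCB) to 1.63 (ACSF2), and without cells over 20% mitochondrial UMIs they were 1.06 (PCCB) to 1.57 (ACSF2). With each cell thinned to 5000 UMIs for both the split and the levels, they were 1.11 (ACSS2) to 1.70 (PCCA). All 5 stayed called in these settings. DLK2+ cells had the highest level of the stress genes and the lowest summed level of 13 mitochondrial genes of the 6 states in each cow, so both measures also moved with the other comparisons that use them. In cows 1, 2 and 3 the stress genes had 10842, 10054 and 2845 CPM in DLK2+ cells, 3727, 6700 and 1696 in GJA1+ cells, 5659, 8270 and 2243 in IGFBP5+ cells and 3627, 6342 and 1697 in TOP2A+ cells. The mitochondrial genes had 124532, 96492 and 110255 CPM in DLK2+ cells, 170374, 140458 and 127139 in GJA1+ cells, 187766, 119112 and 131224 in IGFBP5+ cells and 222003, 123366 and 132585 in TOP2A+ cells. With the mitochondrial and stress genes taken out of the sums, no call of an enzyme was lost in any comparison. That setting keeps the same cells and enzyme counts and changes only the totals they are scaled to. Little change could be seen from it, and whether RNA quality adds to the differences was not tested.

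GJA1+ cells had all 5 enzymes called higher than DLK2+ cells, where 16.9% of all genes were called higher, 16.3% lower and 33.2% in either direction. The edgeR quasi-likelihood test gave ACSF2 1.47 (adjusted p = 6.41e-09), MCEE 1.36 (adjusted p = 1.65e-07), PCCA 1.26 (adjusted p = 2.65e-08), PCCB 0.70 (adjusted p = 0.0234) and ACSS2 0.58 (adjusted p = 0.0145). Both PCCB and ACSS2 were higher in 3 of 3 cows, but their calls were lost when cow 1 or cow 2 was left out. Without cow 1, PCCB was 0.43 (adjusted p = 0.126) and ACSS2 0.43 (adjusted p = 0.156), and without cow 2 they were 0.80 (adjusted p = 0.0908) and 0.58 (adjusted p = 0.0831). With the split alone on thinned cells ACSS2 was called at 0.81 (adjusted p = 6.19e-05), and with split and levels on thinned cells it was not, at 0.44 (adjusted p = 0.178). The ACSS2 call was also lost with DLK2 ignored in the split, at 0.40 (adjusted p = 0.074), and the PCCB call without cells over 20% mitochondrial UMIs, at 0.51 (adjusted p = 0.0918). With no block for the cow PCCB had 0.73 (adjusted p = 0.0604) and ACSS2 0.59 (adjusted p = 0.136).

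IGFBP5+ cells had 4 of the 5 enzymes called higher than DLK2+ cells, where 11.1% of all genes were called higher, 10.1% lower and 21.2% in either direction. By edgeR, ACSS2 was higher by 0.83 (adjusted p = 2.58e-06), ACSF2 by 0.79 (adjusted p = 5.4e-05), PCCA by 0.76 (adjusted p = 2.38e-06) and PCCB by 0.67 (adjusted p = 0.00184). MCEE had 0.27 with a 95% interval of 0.03 to 0.52 (adjusted p = 0.104) and did not pass the threshold. It was higher in 2 of 3 cows, and without cow 1 it was 0.17 (adjusted p = 0.296). It passed in 3 of 14 alternatives, without cow 3 at 0.41 (adjusted p = 0.0241), with no filter on low counts at 0.30 (adjusted p = 0.0176) and with split and levels on thinned cells at 0.31 (adjusted p = 0.0482). PCCB lost its call without cow 2, at 0.72 (adjusted p = 0.0533). With no block for the cow, all 4 calls were lost, at 0.70 to 0.83 with adjusted p from 0.099 (PCCA) to 0.291 (PCCB), and 55 genes were called in all.

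TOP2A+ cells also had 4 of the 5 enzymes called higher than DLK2+ cells, where 22.9% of all genes were called higher, 24.6% lower and 47.4% in either direction. This state includes cells with GJA1, whose levels are given apart below. As means of the 3 cows, 61.2% of TOP2A+ cells held IGFBP5, 18.5% GJA1 and 22.7% DLK2. DLK2+ cells held no IGFBP5 or GJA1 by the split, so the comparison does not tell TOP2A apart from these genes. By edgeR, ACSF2 was higher by 0.84 (adjusted p = 5.81e-06), PCCA by 0.60 (adjusted p = 1.5e-05), ACSS2 by 0.52 (adjusted p = 0.000336) and PCCB by 0.52 (adjusted p = 0.00863). MCEE had 0.07, with a 95% interval of -0.18 to 0.33 (adjusted p = 0.657), was higher in 1 of 3 cows and turned to -0.15 without cow 1. Without cow 1, PCCB fell out of the calls at 0.26 (adjusted p = 0.13), and without cow 2 at 0.58 (adjusted p = 0.0549). With split and levels on thinned cells ACSS2 was 0.35 (adjusted p = 0.0795) and PCCB 0.37 (adjusted p = 0.0518), while with the split alone on thinned cells both were called, at 0.49 (adjusted p = 0.00139) and 0.35 (adjusted p = 0.0241). With no block for the cow they were 0.53 (adjusted p = 0.14) and 0.56 (adjusted p = 0.135).

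What GJA1 marks within IGFBP5 cells was asked by setting IGFBP5+GJA1+ against IGFBP5+ cells. All 5 enzymes were called higher with GJA1, where 17.4% of all genes were called higher, 16.4% lower and 33.8% in either direction. RNA quality moved here too, with stress genes at 3716, 5521 and 1635 CPM in IGFBP5+GJA1+ cells of cows 1, 2 and 3, lower than in IGFBP5+ cells in each cow, and mitochondrial genes at 235836, 145994 and 154220, higher in each cow. By edgeR, MCEE led at 1.11 (SE 0.11, adjusted p = 1.08e-07), with levels that were 2.07-fold as a geometric mean over the cows, and ACSF2 followed at 0.82 (adjusted p = 1.38e-05) and PCCA at 0.71 (adjusted p = 1.03e-06). PCCB had 0.44 (adjusted p = 0.0206) and ACSS2 0.36 (adjusted p = 0.00443), and for these genes the states overlapped. Without cow 2 both lost their calls, PCCB at 0.41 (adjusted p = 0.168) and ACSS2 at 0.34 (adjusted p = 0.0741). DESeq2 did not call PCCB, at 0.42 (adjusted p = 0.0668), and ACSS2 was not called with at least 2 UMIs for the split, at 0.29 (adjusted p = 0.0991), or with split and levels on thinned cells, at 0.36 (adjusted p = 0.117), though it was with the split alone on thinned cells (adjusted p = 0.0123). With no block for the cow, ACSF2 had 0.82 (adjusted p = 0.0876), PCCB 0.43 (adjusted p = 0.406) and ACSS2 0.35 (adjusted p = 0.492).

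What IGFBP5 marks within GJA1 cells was asked by setting IGFBP5+GJA1+ against GJA1+ cells. None of the 5 enzymes was called, beside 0.392% of all genes called higher, 0.649% lower and 1.04% in either direction. The edgeR test gave ACSS2 0.61 (95% interval 0.27 to 0.95, adjusted p = 0.0779), PCCB 0.41 (-0.05 to 0.86, adjusted p = 0.513), PCCA 0.22 (-0.02 to 0.45, adjusted p = 0.498), ACSF2 0.14 (-0.12 to 0.41, adjusted p = 0.756) and MCEE 0.02 (-0.27 to 0.32, adjusted p = 0.977), which was higher in 1 of 3 cows and whose sign turned with library size alone (-0.08). At an unadjusted p under 0.05 from edgeR, ACSS2 alone of the 5 would have passed, and DESeq2 called none of the 5 as well. ACSS2 was higher with IGFBP5 in 3 of 3 cows and was called when DLK2 was ignored in the split, at 0.79 (adjusted p = 0.00396), with no filter on low counts, at 0.64 (adjusted p = 0.0388), and without mitochondrial and stress genes, at 0.64 (adjusted p = 0.0452). PCCA was called with DLK2 ignored, at 0.44 (adjusted p = 0.0326). Cow 1 held 33 of the 52 GJA1+ cells with under 2% mitochondrial UMIs, so the GJA1+ state was not alike in the 3 cows. The mitochondrial genes had a higher summed level in IGFBP5+GJA1+ than in GJA1+ cells in each cow, with the values given above, and the stress genes a lower one.

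**Figure D2:**
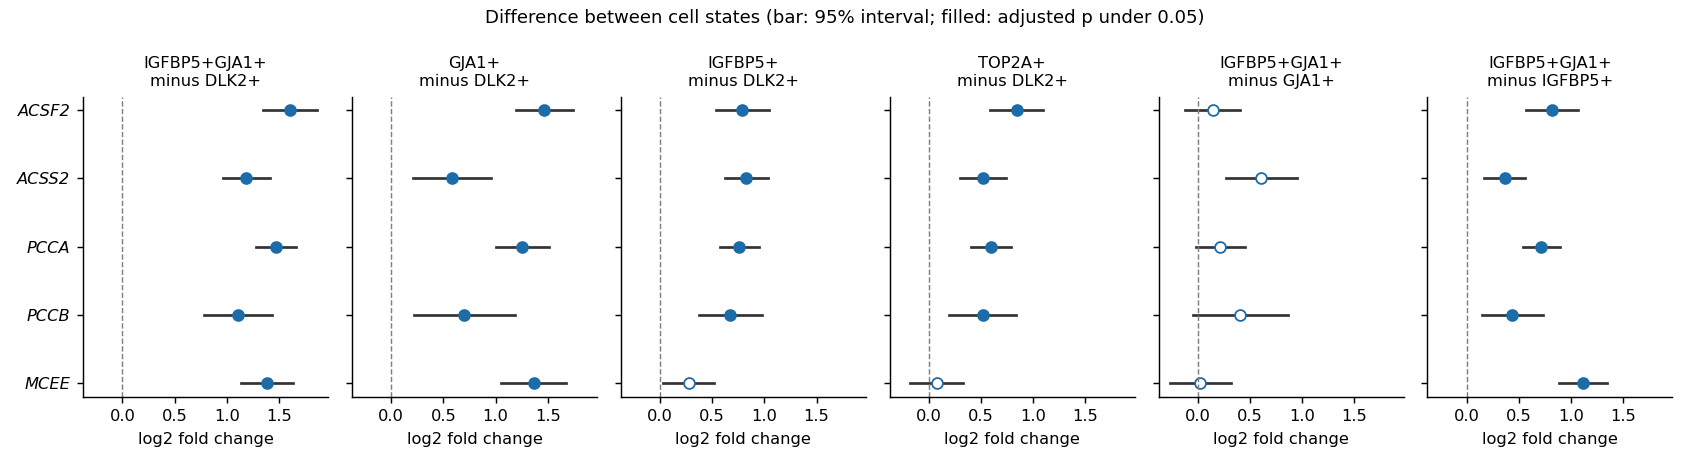
Log2 fold change of 5 enzyme genes in 6 comparisons of cell states from edgeR (18 sums from 3 cows). Bars show the 95% interval of the fit over all states, and points are filled where the adjusted p was under 0.05. MCEE lies at 1.39, 1.36 and 1.11 where a GJA1 state is set against a state without GJA1 and at 0.27, 0.07 and 0.02 in the other comparisons.

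The share of cells with a UMI was compared with the enzyme counts at equal depth, while the states were still those set at full depth. Cells were thinned to 5000 UMIs, which kept 19210 of the 20728 cells, and 235 of the 296 GJA1+ cells (49 of 96 in cow 1). MCEE was then found in 38.3% ± 5.30 (SD, n = 3 cows) of GJA1+ cells and 38.3% ± 3.04 of IGFBP5+GJA1+ cells, and in 18.4% ± 1.2 of DLK2+ cells. Before thinning the shares were 59.5%, 73.7% and 29.3%. ACSF2 was found in 82.4% ± 4.34 of thinned IGFBP5+GJA1+ cells and 46.7% ± 8.74 of DLK2+ cells, from 96.5% and 62.0% before thinning.

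After thinning, PCCA was found in 34.4% ± 3.07 of IGFBP5+GJA1+ cells and 14.1% ± 3.14 of DLK2+ cells, PCCB in 22.0% ± 4.95 and 11.2% ± 1.25, and ACSS2 in 13.9% ± 1.81 and 7.13% ± 1.76. The unthinned shares were 69.9% and 23.9% for PCCA, 55.2% and 19.8% for PCCB and 38.3% and 11.7% for ACSS2. The authors kept epithelial cells alone, so no cell type that should lack these enzymes was at hand, and the share that free RNA gives was not measured.

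**Figure D3:**
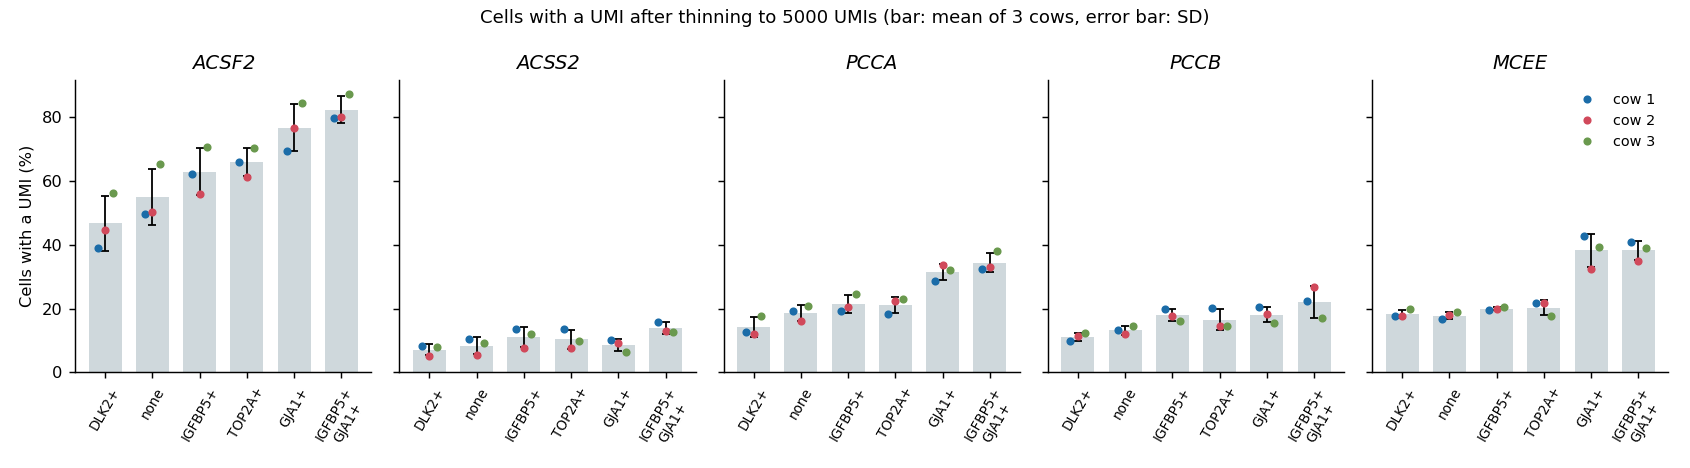
Share of cells with at least 1 UMI of each enzyme gene (percent, linear axis from 0) after each cell was thinned to 5000 UMIs, by cell state, with a bar for the mean of 3 cows, an error bar for the SD and 1 point per cow. MCEE was in 18.4% of DLK2+ cells and in 38.3% of both GJA1 states, and ACSF2 went from 46.7% to 82.4%.

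The levels were also followed by how many UMIs of a gating gene a thinned cell held while the other 3 gating genes were at 0. With 0, 1, 2 and 3 or more UMIs of GJA1, MCEE had mean levels of 42.7 ± 1.43, 90.9 ± 18.1, 126 ± 18.1 and 124 ± 12.8 CPM (SD, n = 3 cows). With the same numbers of IGFBP5 UMIs it had 42.7, 47.8 ± 1.09, 48.1 ± 2.75 and 47.0 ± 2.34. MCEE was thus higher with 1 or more GJA1 UMIs than with 0 in each cow, while its means with IGFBP5 stayed between 42.7 and 48.1. ACSF2 had 193 ± 53.1, 342 ± 95.8, 410 ± 64.4 and 403 ± 61.8 with GJA1 and 193, 220 ± 46.7, 238 ± 31.2 and 273 ± 63.9 with IGFBP5. With 1, 2 and 3 or more UMIs of TOP2A, ACSF2 had 255 ± 33.3, 193 ± 39.5 and 186 ± 57.9. The last was below the level with 0 UMIs in each cow. MCEE had 40.6 ± 9.25, 40.4 ± 13.5 and 37.9 ± 12.0 with TOP2A. With 3 or more UMIs of TOP2A, the means of ACSS2, PCCA and PCCB were 23.6, 44.5 and 36.4, beside 19.0, 43.8 and 31.2 with 0.

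ACSS2 went up with IGFBP5 in each cow, within wide spreads between cows. Its mean was 19.0 ± 5.79, 23.6 ± 4.96, 26.2 ± 7.35 and 31.4 ± 11 CPM with 0, 1, 2 and 3 or more UMIs of IGFBP5. With GJA1 it was 25.1 ± 8.47, 17.9 ± 9.82 and 13.8 ± 7.33 for 1, 2 and 3 or more UMIs, which rest on 27, 7 and 11 UMIs of ACSS2 and overlap. With DLK2 its mean was 16.1 ± 4.96, 13.1 ± 3.92 and 20.5 ± 3.87, the last on 30 UMIs of ACSS2, so it did not go down over all the bins. PCCA went with DLK2 from 43.8 ± 5.81 at 0 UMIs to 33.9 ± 6.39, 31.2 ± 15.6 and 23.2 ± 4.76, PCCB from 31.2 ± 1.18 to 29.3 ± 1.55, 22.5 ± 1.85 and 16.8 ± 7.13, and ACSF2 from 193 to 154 ± 34.0, 137 ± 51.0 and 124 ± 23.7. MCEE went from 42.7 ± 1.43 at 0 UMIs of DLK2 to 40.1 ± 2.98, 43.4 ± 5.8 and 49.7 ± 13.7. Its means thus did not go down over all the bins, and the last 2 rest on 125 and 69 UMIs of MCEE. In cow 2 it was 41.6 at 0 UMIs and 36.7, 37.6 and 35.6 in the other bins. These are levels of cells chosen after the main comparisons, and they were not tested.

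**Figure D4:**
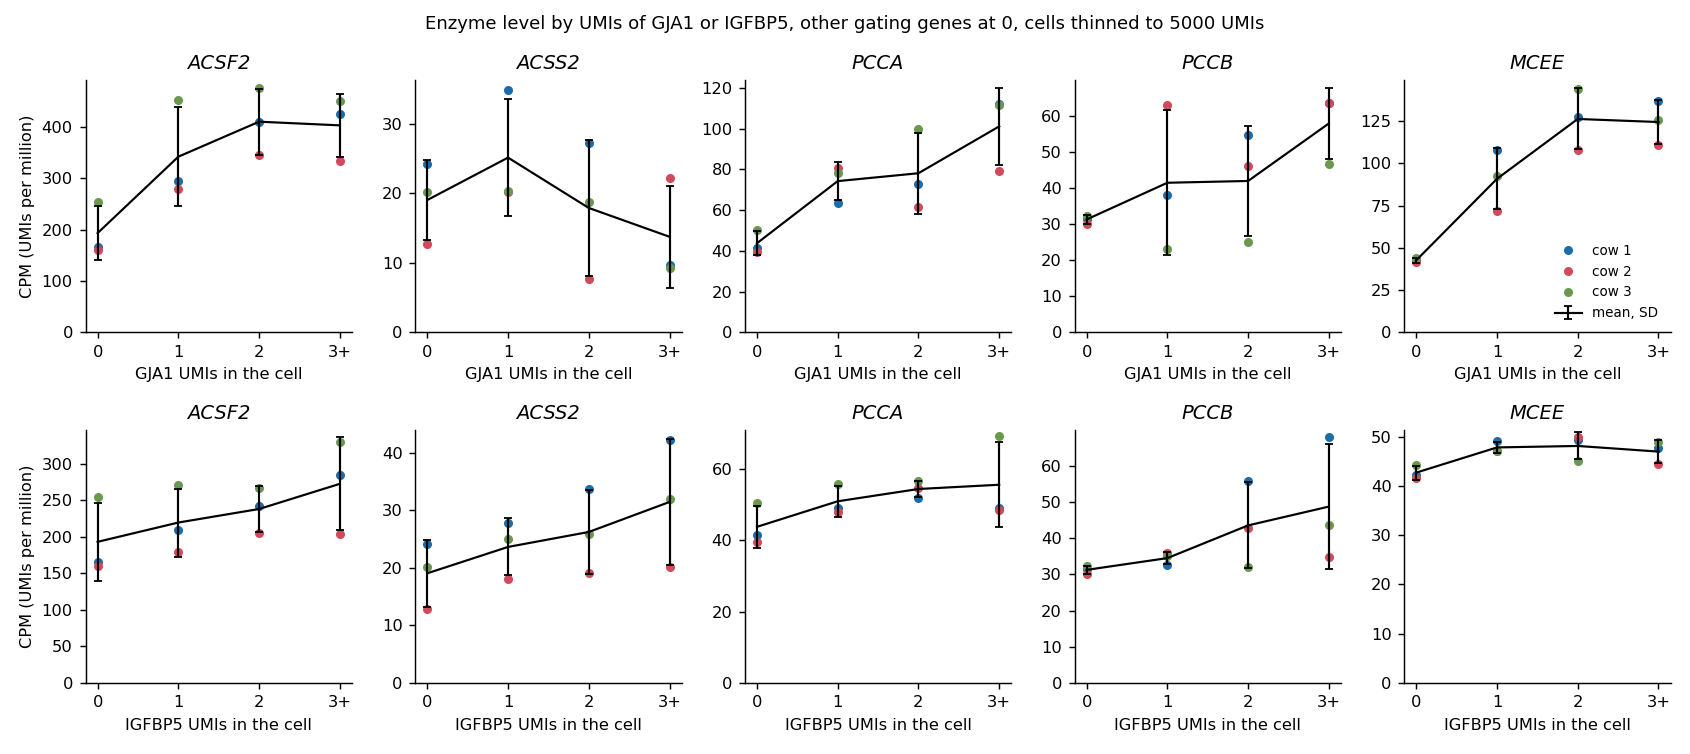
Level of 5 enzyme genes (CPM, linear axes from 0) in cells thinned to 5000 UMIs, by the number of GJA1 UMIs (top) or IGFBP5 UMIs (bottom) in the cell with the other gating genes at 0, with 1 point per cow and a line and bars for the mean and SD of 3 cows. The MCEE mean goes from 42.7 to 124 with GJA1 and from 42.7 to 47.0 with IGFBP5, and the ACSS2 mean goes from 19.0 to 31.4 with IGFBP5.

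The dividing cells were then split by GJA1, a choice made after the first values were seen. TOP2A+ cells with GJA1 numbered 115, 65 and 129 in the 3 cows, and those without it 257, 312 and 1658. MCEE had 83.5, 56.3 and 60.7 CPM with GJA1 and 42.4, 35.0 and 40.5 without. ACSF2 had 391, 296 and 407 with GJA1 and 226, 197 and 276 without. Both genes were higher with GJA1 in 3 of 3 cows and did not overlap. This split was not tested, and the share of all genes that behave this way in it was not counted.

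PCCA had 66.6, 71.7 and 65.9 in TOP2A+ cells with GJA1 and 41.0, 46.8 and 58.8 in those without. PCCB had 54.3, 52.7 and 39.6 against 45.9, 35.4 and 32.7, and ACSS2 32.8, 23.4 and 22.6 against 25.4, 15.2 and 23.7. PCCA did not overlap, while PCCB and ACSS2 did, and ACSS2 was lower with GJA1 in cow 3. In the cells that held DLK2 with GJA1 or IGFBP5, MCEE had 70.1, 65.0 and 62.1 with GJA1 and 42.5, 41.0 and 45.6 without. Those without GJA1 held DLK2 and IGFBP5. They had 158, 171 and 249 CPM of ACSF2 and 41.6, 40.5 and 54.2 of PCCA. PCCB was at 35.0, 32.9 and 35.8 and ACSS2 at 26.2, 15.4 and 24.8. For ACSF2, PCCA, PCCB and ACSS2, these levels lay between those of DLK2+ and IGFBP5+ cells in each cow. The median depth was 17597 UMIs with GJA1 and 13927 without in TOP2A+ cells, and 15035 and 10742 in the DLK2 cells. Whether doublets add to these cells, after the doublet calls of the authors, was not tested.

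The rest of the propionate route was followed with a list of 13 measured genes for the methylmalonyl-CoA steps and the handling of cobalamin, the vitamin that MMUT needs. In IGFBP5+GJA1+ against DLK2+ cells, 9 of the 13 were called higher by edgeR, 0 were called lower and 4 were called in neither direction, where 23.9% of all genes tested were called higher and 26.6% lower. The median log2 fold change of the 13 was 0.35, beside -0.06 over all genes. MMUT, the mutase after MCEE, had 66.4, 64.8 and 63.8 CPM in DLK2+ cells and 105, 94.0 and 72.7 in IGFBP5+GJA1+ cells. It was higher by 0.65 (SE 0.10, adjusted p = 1.37e-05), less than the 1.39 of MCEE, and this difference between genes was not tested. SUCLG1, the shared subunit of succinyl-CoA ligase, was higher by 0.68 (adjusted p = 5.36e-07), and its partners SUCLG2 and SUCLA2 by 0.43 (adjusted p = 0.000964) and 0.42 (adjusted p = 0.00204).

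Among the cobalamin genes, MMACHC, which frees cobalamin for use in the cell, was highest at 1.49 (SE 0.16, edgeR adjusted p = 4.12e-08), with levels of 8.52, 6.41 and 8.53 CPM in DLK2+ cells and 19.8, 15.7 and 22.8 in IGFBP5+GJA1+ cells. MTR, the cobalamin enzyme that makes methionine, was higher by 1.08 (adjusted p = 0.00178) on 57 and 72 UMIs. MMAA, MMADHC and MMAB, which guide cobalamin to its enzymes or change its form, were higher by 0.35 (adjusted p = 0.0482), 0.33 (adjusted p = 0.00523) and 0.30 (adjusted p = 0.0223). LMBRD1 and ABCD4, which export cobalamin from the lysosome, had -0.13 and -0.01, the receptor CD320 -0.08 and MTRR, which reactivates MTR, -0.03, and none of these 4 was called. In GJA1+ cells against DLK2+ cells 3 of the 13 were called higher and 0 lower, beside 16.9% and 16.3% of all genes. MMUT was not among the 3, at 0.22 (95% interval -0.06 to 0.50, edgeR adjusted p = 0.227), with 96.4, 67.0 and 58.5 CPM in GJA1+ cells, lower than in DLK2+ cells in cow 3. In IGFBP5+ cells 5 were called higher and 0 lower, beside 11.1% and 10.1%, and in TOP2A+ cells 5 higher and 2 lower, beside 22.9% and 24.6%.

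**Figure D5:**
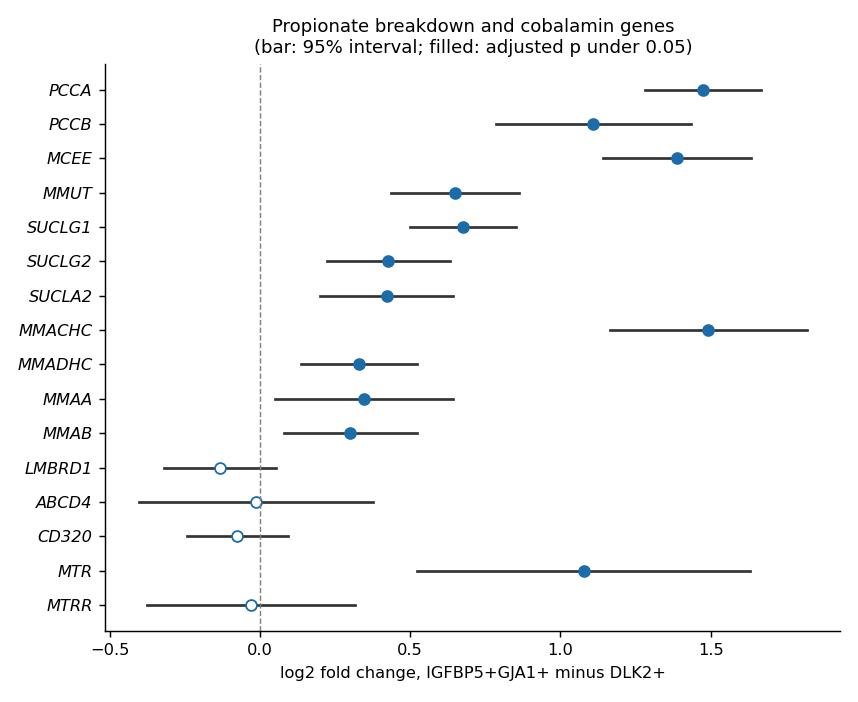
Log2 fold change of the propionyl-CoA carboxylase subunits, MCEE, MMUT, the succinyl-CoA ligase subunits and the cobalamin genes. Values compare IGFBP5+GJA1+ with DLK2+ cells by edgeR (18 sums from 3 cows). Bars show the 95% interval of the fit over all states, and points are filled where the adjusted p was under 0.05. PCCA at 1.47, MCEE at 1.39 and MMACHC at 1.49 lie above MMUT at 0.65, and the 4 open points from LMBRD1 at -0.13 to ABCD4 at -0.01 lie around 0.

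Genes that feed or attend the carboxylase were counted in the same comparison of IGFBP5+GJA1+ with DLK2+ cells, as were the lists that follow, where 23.9% of all genes were called higher and 26.6% lower. Of 7 tested genes for biotin and other biotin enzymes, 0 were called higher and 1 lower. That gene was BTD, which recycles biotin, at -1.41 (edgeR adjusted p = 0.00138). Of 16 genes that yield propionyl-CoA or break down branched-chain amino acids, 9 were called higher and 2 lower, beside the same 23.9% and 26.6% of all genes. ACADSB, an acyl-CoA dehydrogenase of isoleucine breakdown, was higher by 1.19 (adjusted p = 2.8e-07) and ECHS1, an enoyl-CoA hydratase, by 0.95 (adjusted p = 7.04e-09). BCAT2, the mitochondrial transaminase that opens the route, was lower at -1.55 (adjusted p = 0.000282).

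Of 7 genes that use acetyl-CoA in mitochondria, 5 were called higher and 1 lower, beside 23.9% and 26.6% of all genes, with a median of 1.46. CRAT, which moves acetyl groups onto carnitine, was higher by 1.91 (edgeR adjusted p = 1.34e-09), ACOT2, a thioesterase, by 1.74 (adjusted p = 4.91e-11) and ACAT1, the thiolase, by 1.46 (adjusted p = 3.35e-07). CRAT had 10.5, 10.1 and 13.6 CPM in DLK2+ cells of cows 1, 2 and 3 and 36.3, 39.0 and 36.4 in IGFBP5+GJA1+ cells, which did not overlap.

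Of 7 genes that use or supply acetyl-CoA in the cytosol, 4 were called higher and 1 lower, beside 23.9% and 26.6% of all genes, with a median of 0.30. HMGCS1, of sterol synthesis, was higher by 1.42 (edgeR adjusted p = 1.6e-08), SLC25A1, the citrate carrier, by 1.08 (adjusted p = 4.07e-06) and ACAT2, the cytosolic thiolase, by 0.88 (adjusted p = 3.85e-07). FASN, the fatty acid synthase, was lower at -0.61 (adjusted p = 0.000177). Of 8 regulators of the ACSS enzymes, 2 were called higher, near the 23.9% of all genes, and 1 lower, beside 26.6%. INSIG1, a sterol sensor partner, was higher by 2.03 (adjusted p = 0.00044) on 30 and 63 UMIs and SREBF2, a transcription factor of sterol genes, by 1.02 (adjusted p = 6.98e-08), while the deacetylase SIRT1 was lower at -0.83 (adjusted p = 0.000298).

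Of 10 other acyl-CoA synthetases tested, 2 were called higher and 4 lower in IGFBP5+GJA1+ cells, beside 23.9% and 26.6% of all genes, with a median of -0.18. SLC27A2, a very long-chain synthetase and transporter, was higher by 2.90 (edgeR adjusted p = 6.28e-07) on 28 and 128 UMIs, and ACSF3, a malonyl-CoA synthetase, by 0.65 (adjusted p = 0.000167). ACSL4, which prefers arachidonate, was lower at -1.48 (adjusted p = 0.00128) and AACS, the acetoacetate enzyme, at -0.69 (adjusted p = 0.00943).

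The pattern over the 18 sums, each cow centred on its own mean, was compared between genes by Pearson's r as a description, since the sums share cows and libraries. Among the 5 enzymes, r ran from 0.587 for ACSS2 with MCEE to 0.972 for ACSF2 with PCCA. PCCA and PCCB, the subunits of 1 enzyme, had 0.842, and MCEE with PCCA had 0.891. Of 7716 genes, those most like ACSF2 were ETHE1 (0.993), FAM162A (0.991) and MGST3 (0.989), and those most like PCCA were VILL (0.985), TST (0.984) and SCGB1C1 (0.983). MCEE was nearest to ECM1 (0.981), TCTA (0.981) and C18H19orf33 (0.966). ACSS2 was nearest to PRDX3 (0.932), DGKA (0.921) and ACADSB (0.919), and PCCB to ACADSB (0.953), ACO1 (0.942) and DGKA (0.939), so ACSS2 and PCCB had 2 of their 3 nearest genes in common.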

How the data were processed

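Rumen epithelium of 3 cows was dissociated and sequenced with the Chromium Single Cell 3' kit (v3), 1 library per cow. The authors deposited UMI counts per gene and cell, made with Cell Ranger 3.1.0 on the Ensembl annotation of a bovine assembly that the methods call ARS-USD1.2, after filters on genes, UMIs and mitochondrial share, doublet calls and removal of other cell types. None of the 20728 cells in the matrix lay outside the stated limits. The authors also deposited natural log values of the same counts scaled to 10000 UMIs per cell, used only to name the matrix rows. Each of the 19533 named rows matched its matrix row within 1e-06. The ending of each barcode gave the cow.

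Cells were split by UMIs of DLK2, GJA1, IGFBP5 and TOP2A, and counts were summed per cow and state (18 sums of at least 10 cells). edgeR 4.0.16 in R 4.3.3 (TMM, filterByExpr, quasi-likelihood test, cow as block, all 6 states in 1 fit) tested 6 contrasts, with Benjamini-Hochberg adjustment and a threshold of 0.05. The common biological coefficient of variation was 0.0773. The cow pairs the sums, since all states come from the same animals. Deviations from the state means had mean correlations of 0.608, 0.606 and 0.636 within cows and -0.299 to -0.411 between cows. Centring each state on its mean over 3 cows pulls the values between cows below 0, so these say nothing about pairing. Alternatives were DESeq2 1.42.0, no filter, no block, each cow left out, other splits, thinning to 5000 UMIs (seed 20), limits on mitochondrial share, at least 30 cells per sum and, chosen after seeing the data, library size alone and sums without mitochondrial and stress genes. The levels by UMIs of a gating gene and the split of TOP2A+ cells by GJA1 were also added then. Python 3.11.15 with numpy 2.4.6, scipy 1.17.1 and pandas 2.3.3 made the sums.

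The members, states and gene lists were chosen with earlier results of these data known. Named genes are all 7 members, the gating and marker genes, each measured gene of the methylmalonyl-CoA and cobalamin list, up to 4 called genes with the largest change in each other list and the 3 genes most like each member over the sums (Pearson's r of log2 CPM, prior count 2, at least 1000 UMIs). Some genes of these lists are not reported here, though the counts and medians over a list still hold them. Precision rests on 3 animals. The limits given for a count of 0 cover counting error only. No coordinates or sequences are given, because the annotation at hand is of another assembly.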

Additional observations from a re-analysis of the deposited data

How the results depend on the processing

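The 5 tested enzymes in 6 comparisons under 14 alternatives gave 420 results. The planned minimum of 30 cells per sum dropped no sum, since the smallest had 80 cells, and is not counted. Of the 420, 374 kept their direction and their side of the threshold, 28 lost a call, 7 gained one and 11 changed sign. The 11 were all MCEE where it was not called. With each cow left out in turn it ran from -0.0039 to 0.0806 in IGFBP5+GJA1+ against GJA1+ cells and from -0.1542 to 0.2915 in TOP2A+ against DLK2+ cells. The negative values against GJA1+ cells were -0.0039 without cow 2, -0.0155 with at least 2 UMIs for the split, -0.0327 with the split on thinned cells, -0.0439 with split and levels on thinned cells, -0.035 without cells over 20% mitochondrial UMIs and -0.0769 with library size alone, and those in TOP2A+ against DLK2+ cells were -0.1542 without cow 1, -0.0062, -0.0944, -0.0175 and -0.0272 in the 4 settings from at least 2 UMIs to the mitochondrial limit, in that order. In IGFBP5+GJA1+ against DLK2+ cells all 5 enzymes were called under all 14. The cause of these changes was not tested.

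The number of genes called was 5288 in IGFBP5+GJA1+ against DLK2+ cells, 3474 in GJA1+, 2222 in IGFBP5+ and 4967 in TOP2A+ against DLK2+ cells, 109 in IGFBP5+GJA1+ against GJA1+ cells and 3537 in IGFBP5+GJA1+ against IGFBP5+ cells. With no replicate block for the cow these were 1903, 1494, 55, 1278, 3 and 383, and 11 calls of the enzymes were lost, which are given beside the comparisons. With each cow left out in turn the counts ran from 3875 to 4800, 2440 to 2980, 856 to 2050, 3553 to 4328, 77 to 93 and 2107 to 2832, each time lowest without cow 2 (tied with cow 1 in IGFBP5+GJA1+ against GJA1+ cells). With split and levels on thinned cells, which hold fewer UMIs, the counts were 2978 (IGFBP5+GJA1+ against DLK2+), 1356 (IGFBP5+ against DLK2+), 41 (IGFBP5+GJA1+ against GJA1+) and 1734 (IGFBP5+GJA1+ against IGFBP5+). With DLK2 ignored, IGFBP5+ against DLK2+ cells had 1378 calls and IGFBP5+GJA1+ against GJA1+ cells 248, and the latter comparison had 315 with no filter, 224 with at least 2 UMIs for the split and 32 without cells under 2% mitochondrial UMIs.

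The share of calls that were higher also moved with the scaling. With library size alone it went from 47.3% to 30.4% in IGFBP5+GJA1+ and from 52.5% to 29.3% in IGFBP5+ against DLK2+ cells, from 51.4% to 40.4% in IGFBP5+GJA1+ against IGFBP5+ cells and from 37.6% to 17.8% against GJA1+ cells. The median over all genes went down with library size alone in each comparison but TOP2A+ against DLK2+ cells. There it went up from -0.0362 to -0.0034. No call of an enzyme was lost or gained with library size alone. ACSS1, with 24 UMIs, and ACSS3, with 5 UMIs, did not pass the filter on low counts.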

Other observations

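A group of GJA1+ cells had almost no mitochondrial RNA. Of the 296 GJA1+ cells, 52 (17.6%) had under 2% mitochondrial UMIs, against 9 of 3147 DLK2+ cells (0.286%), and they numbered 33 in cow 1, 4 in cow 2 and 15 in cow 3. Such cells were also found among IGFBP5+GJA1+ cells (31, or 2.80%), TOP2A+ cells (41, or 1.62%), IGFBP5+ cells (39, or 0.661%) and cells with none of the 4 genes (88, or 2.47%). In the GJA1+ ones the median depth was 3045.5 UMIs. BPIFA2C, a gene of the BPI fold family that the study uses as a marker, took 4595 UMIs in these cells, with levels of 16326, 1979 and 22374 CPM in cows 1, 2 and 3, against 380, 989 and 362 in the other GJA1+ cells. The IGFBP5+GJA1+ ones had BPIFA2C levels of 4052, 632 and 1811, with 1 cell in cow 2, against 536, 361 and 462 in the other IGFBP5+GJA1+ cells.

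In the GJA1+ cells with under 2% mitochondrial UMIs, MCEE had 278, 247 and 172 CPM, on 57 UMIs, against 96.1, 84.5 and 95.4 in the other GJA1+ cells, and ACSF2 had 725, 495 and 319, on 130 UMIs, against 341, 329 and 420, so it was lower in cow 3. PCCA had 107, 198 and 57.3, on 23 UMIs, against 77.2, 66.4 and 88.7, and was also lower in cow 3. ACSS2 had 1 UMI and PCCB 8 UMIs, too few to set against the 73 and 134 UMIs of the other GJA1+ cells. The cells were picked after their mitochondrial share was seen, so no test was made. Without all cells under 2% mitochondrial UMIs, each of the 5 enzymes was still called in GJA1+ against DLK2+ cells and in IGFBP5+GJA1+ against DLK2+ cells.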
